A study of Mus musculus with 16 samples.

Results

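The collagen genes were examined in 16 cultured explants of mouse epicardium, 8 treated with blebbistatin and 8 controls without it. They were taken as every gene of the count table whose symbol reads Col, a number, the letter a and a number, which gave 36 of its 15805 genes, and all 36 were among the 15675 tested. By textbook membership 10 are fibrillar, 8 are fibril-associated (FACIT), 8 form networks (types 4 and 8), 4 are of type 6, 2 are multiplexins, 1 is a transmembrane collagen and 3 are others. Both groups were primary explants of epicardial cells from C57BL6 mice on a 1% collagen gel, and no genotype other than the strain is given. Blebbistatin inhibits myosin II, the motor protein that pulls on actin filaments. Its dose reads 20, with the unit written mM in the design text and mm in the treatment protocol, and the true concentration could not be settled. The sources used here do not say whether control explants were given the solvent. The labels do not say that the explants came from separate animals, so each p-value measures the spread between these samples only. The gel itself was collagen, and the counts below are of mouse RNA, not of protein.

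Total counts ran from 20176386 to 89620195 in blebbistatin libraries and from 27065611 to 60321622 in controls. The labelled cell type was checked against 13 markers of epicardium and mesothelium, all of which were in the table. Their summed CPM (counts scaled to a common library total) was 1880 to 5440, with a median of 3530, with blebbistatin and 2830 to 6690, with a median of 4820, in controls. Fibroblast markers, leaving out Col1a1 and Col3a1, summed to 1290 to 2370 CPM (median 1890) with blebbistatin and 1180 to 1850 CPM (median 1760) in controls. The largest part was Dcn, with medians of 1130 CPM with blebbistatin and 1070 CPM in controls. Other members went opposite ways. Medians with blebbistatin and in controls were 211 and 127 CPM for Pdgfra and 195 and 97.3 CPM for Lum. They were 66.0 and 106 CPM for Thy1 and 55.1 and 123 CPM for Postn. Macrophage markers, all 13 in the table, summed to 273 to 3860 CPM (median 904) with blebbistatin and 310 to 4600 CPM (median 700) in controls. The cardiomyocyte list, 7 of 12 in the table, stood at 625 to 1170 CPM (median 981) with blebbistatin and 404 to 980 CPM (median 563) in controls. Most of it was Tnnt2. Myl7 was at 35.7 CPM or more in every library, with medians of 74.4 CPM with blebbistatin and 94.0 CPM in controls. Myh6 and Actc1, which define working heart muscle, had medians under 1 CPM in both groups. In single libraries Myh6 reached 8.33 CPM (blebbistatin 4) and Actc1 8.37 CPM (control 2). Smooth muscle and pericyte markers (8 of 10) ranged from 172 to 320 CPM (median 205) with blebbistatin and 201 to 504 CPM (median 324) in controls. Most of their sum was Des (medians 146 CPM with blebbistatin and 239 CPM in controls) and Pdgfrb (77.8 and 65.6 CPM). Myh11, Cnn1 and Myocd had medians of 0.503, 1.53 and 0.37 CPM with blebbistatin and 0.848, 4.37 and 1.38 CPM in controls. Endothelial markers (6 of 10) ranged from 17.3 to 57.5 CPM with blebbistatin and 31.4 to 97.4 CPM in controls, and Schwann cell markers (2 of 7) from 2.71 to 7.76 CPM with blebbistatin and 1.15 to 10.3 CPM in controls. Tek had the highest medians of the endothelial list, 25.5 CPM with blebbistatin and 33.4 CPM in controls. Pecam1 had medians of 1.25 and 0.981 CPM. Of the 53 markers tested 0 passed edgeR. At an unadjusted p under 0.05, 10 were lower, against 5.98% of all genes tested, and 5 higher, against 6.21%. DESeq2 called 5 lower and 3 higher, against 1.53% and 1.26% of all genes to which it gave an adjusted p. Apart from the macrophage sum, which was tried as a covariate, their part in the results was not tested. In such bulk samples, fewer cells of a type and less RNA per cell cannot be told apart.

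Collagens are secreted proteins made of chains wound into a triple helix, and they carry much of the strength of the extracellular matrix. Fibrillar collagens pack side by side into fibrils, FACITs coat those fibrils, type 4 collagen forms the sheet of basement membranes, type 8 forms lattices in vessel walls and beneath some cell layers, and type 6 forms beaded filaments between fibrils and cells. In the heart, epicardial cells rest on a basement membrane and are a known source of the fibroblasts that lay down type 1 and type 3 collagen.

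The levels of the collagen genes spanned more than 3 orders of magnitude. Levels are given as CPM after TMM scaling, and between genes only per kb of annotated exon. Over all 16 libraries, Col1a1, a chain of type 1 collagen, was highest with a mean of 538 CPM per kb, ahead of its partner Col1a2 at 258. The type 4 chains Col4a2 (193 CPM per kb) and Col4a1 (178), the type 8 chain Col8a1 (180) and the type 3 chain Col3a1 (112) came next. These 6 genes lay above 100 CPM per kb. Another 5, namely Col5a1, Col5a2, Col4a5, Col6a1 and Col11a1, lay between 10 and 100, 9 lay between 1 and 10 and 16 at or under 1, down to Col23a1 at 0.124. Col4a2, Col8a1 and Col4a1 lay within their spread of each other, but their order differed by group: the mean levels were 171, 108 and 162 CPM per kb with blebbistatin and 215, 253 and 193 CPM per kb in controls, so that Col8a1 stood below both type 4 chains with blebbistatin and above both in controls. Exon length was the union of all annotated transcripts, which is 12.4 kb for Col1a2 and 6.56 kb for Col1a1, so a per-kb level depends on that annotation. Together the 36 genes held a median of 1.16% of all counts with blebbistatin (range 0.738% to 1.60%) and 1.44% in controls (1.16% to 1.83%).

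**Figure D1:**
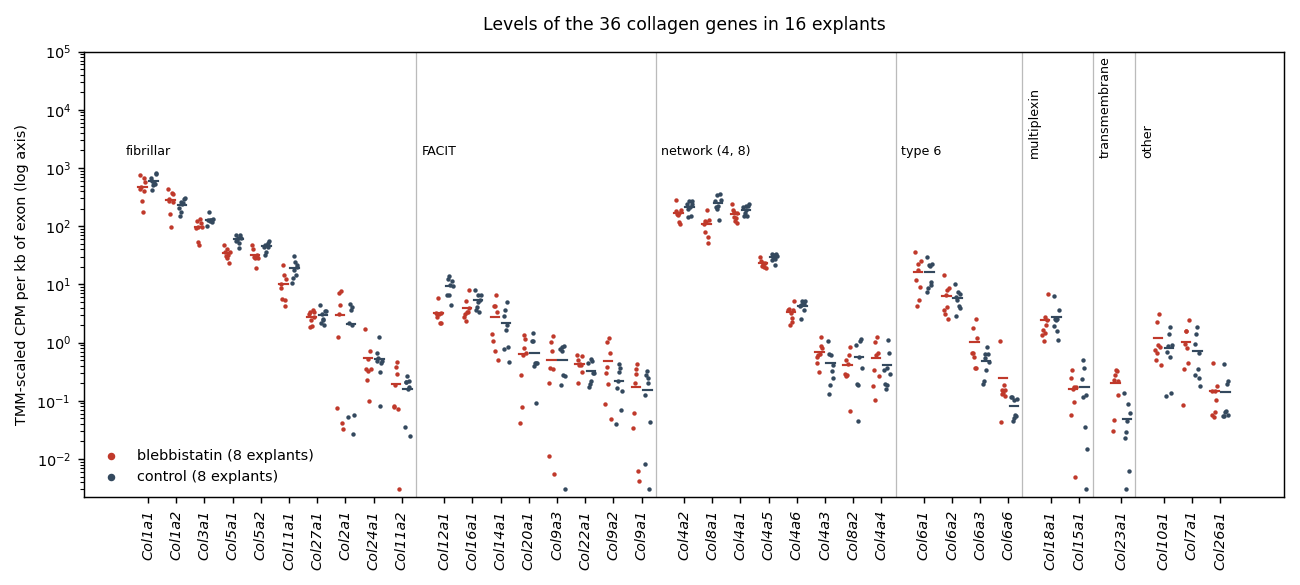
Level of each of the 36 collagen genes in every explant, as TMM-scaled CPM per kb of exon on a log axis, grouped by class. Points are explants, horizontal bars are means of 8, and explants with no count are drawn at the lower end. The means over all 16 explants lie above 100 CPM per kb for Col1a1, Col1a2, Col3a1, Col4a1, Col4a2 and Col8a1, and most FACIT, type 6 and minor network genes lie at least an order of magnitude lower.

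Start regions are shown for the collagens that the comparisons below turn on and that had an entry among the RefSeq promoter windows of build GRCm38.p6, which run from 250 bases before to 50 bases after a gene's start. Windows were found for 27 of the 36 genes, and not for Col12a1, Col14a1, Col1a1, Col22a1, Col26a1, Col2a1, Col4a3, Col5a2 or Col9a3. Col5a1 and Col8a1 are shown because both were lower with blebbistatin, Col1a2 because its ratio to Col1a1 shifted, and Col4a1 because its start lies against that of Col4a2. Capitals mark matches, on either strand, to the GC box GGGCGG or to CCAAT. The windows are chr2:27886175-27886474 on the plus strand for Col5a1, chr16:57754688-57754987 on the minus strand for Col8a1, chr6:4505368-4505667 on the plus strand for Col1a2 and chr8:11312777-11313076 on the minus strand for Col4a1.
Col5a1: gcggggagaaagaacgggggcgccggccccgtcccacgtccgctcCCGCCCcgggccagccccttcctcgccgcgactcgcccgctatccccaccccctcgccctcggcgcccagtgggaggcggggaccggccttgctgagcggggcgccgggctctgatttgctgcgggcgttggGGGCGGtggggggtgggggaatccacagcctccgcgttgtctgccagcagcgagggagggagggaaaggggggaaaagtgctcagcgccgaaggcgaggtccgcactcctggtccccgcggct
Col8a1: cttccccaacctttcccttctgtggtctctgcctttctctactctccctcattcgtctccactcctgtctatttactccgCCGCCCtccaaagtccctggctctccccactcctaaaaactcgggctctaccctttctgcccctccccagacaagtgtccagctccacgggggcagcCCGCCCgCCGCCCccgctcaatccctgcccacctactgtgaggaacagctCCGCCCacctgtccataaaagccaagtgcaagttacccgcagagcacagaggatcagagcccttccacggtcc
Col1a2: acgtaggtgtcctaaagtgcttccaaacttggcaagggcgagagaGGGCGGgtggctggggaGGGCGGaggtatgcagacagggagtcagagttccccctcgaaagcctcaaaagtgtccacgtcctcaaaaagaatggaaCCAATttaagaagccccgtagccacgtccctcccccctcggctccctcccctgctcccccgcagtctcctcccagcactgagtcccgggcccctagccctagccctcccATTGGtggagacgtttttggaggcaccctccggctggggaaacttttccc
Col4a1: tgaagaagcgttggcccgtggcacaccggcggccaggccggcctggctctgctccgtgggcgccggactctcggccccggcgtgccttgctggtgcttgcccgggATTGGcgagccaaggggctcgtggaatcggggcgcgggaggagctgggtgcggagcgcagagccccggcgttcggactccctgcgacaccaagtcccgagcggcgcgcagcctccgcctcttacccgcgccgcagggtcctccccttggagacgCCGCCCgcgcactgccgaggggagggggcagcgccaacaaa
The Col8a1 window held 4 GC boxes and no CCAAT, the Col5a1 window 2 GC boxes, the Col1a2 window 2 of each and the Col4a1 window 1 of each. Among the 27 collagen genes with a window, 18 (66.7%) had a GC box, against 35.7% of all 32851 windows. The units differ, here and for the motifs below. A collagen gene counted if any of its windows matched, and Col18a1, Col6a2 and Col9a1 had more than 1. The share over all windows is of single windows, not limited to genes of the count table. A CCAAT was found in 9 (33.3%), against 37.4% of all windows, and a TATA box (TATAAA) in 3, Col3a1, Col10a1 and Col11a2 (11.1%, against 13.6%). The TEAD motif GGAATG, the letters read by the partners of YAP and TAZ, was in 5 (18.5%, against 14.7%), namely Col18a1, Col20a1, Col3a1, Col4a6 and Col6a2. The AP-1 motif TGANTCA was in Col6a1 alone (3.70%, against 7.81%), and the CArG box of serum response factor in none of the 27, against 1.63% of all windows. A match describes these letters and not a bound site.

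Of the 36 collagen genes, 3 were lower with blebbistatin and 0 were higher by edgeR's quasi-likelihood test at a Benjamini-Hochberg adjusted p under 0.05 over all tested genes: the FACIT gene Col12a1, the fibrillar gene Col5a1 and the network gene Col8a1. Among all genes tested, 0.351% were called lower and 0.255% higher. At an unadjusted p under 0.05, 7 collagen genes were lower, against 5.98% of all genes, and 3 were higher, against 6.21%. DESeq2 and limma voom each called the same 3 lower and 0 higher, against 1.53% of genes lower and 1.26% higher in DESeq2, where 3 collagen genes had no adjusted p, and 0.504% and 0.217% in limma voom. In 5 of the collagen genes, Col6a6, Col9a2, Col15a1, Col23a1 and Col26a1, fewer than 4 controls exceeded 1 CPM. They met the rule of the count table, above 1 CPM in at least 4 libraries, only with the help of blebbistatin libraries, so their place in the table rests on their being high there. Col23a1 passed through blebbistatin libraries alone (5, with 0 controls) and Col6a6 through 7 of them and 1 control, and both are among the 3 genes of low unadjusted p that were higher. No count or median over the 36 genes is offered as support for a direction. The median log2 fold change, blebbistatin over control, was 0.01 over the 36 genes and 0.04 over all genes tested, with 17 collagen genes below 0 and 19 above. By class the median was −0.23 for fibrillar collagens, with 6 of 10 negative, and −0.35 for network collagens, with 6 of 8 negative. It was 0.08 for FACITs, with 3 of 8 negative and a sign that changed with the processing (−0.45 to 0.32 over all alternatives). For type 6 collagens, Col6a6 included, it was 0.59, with all 4 positive, although limma voom put Col6a1 at −0.13 and Col6a2 at −0.01. These counts and medians describe the classes, and no class was tested as a set. Level and sign went together in part: of the 11 genes above 10 CPM per kb 9 had a negative log2 fold change (median −0.37), and of the 25 at or under that level 8 did (median 0.15). All 5 genes with fewer than 4 controls above 1 CPM are among those 25.

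**Figure D2:**
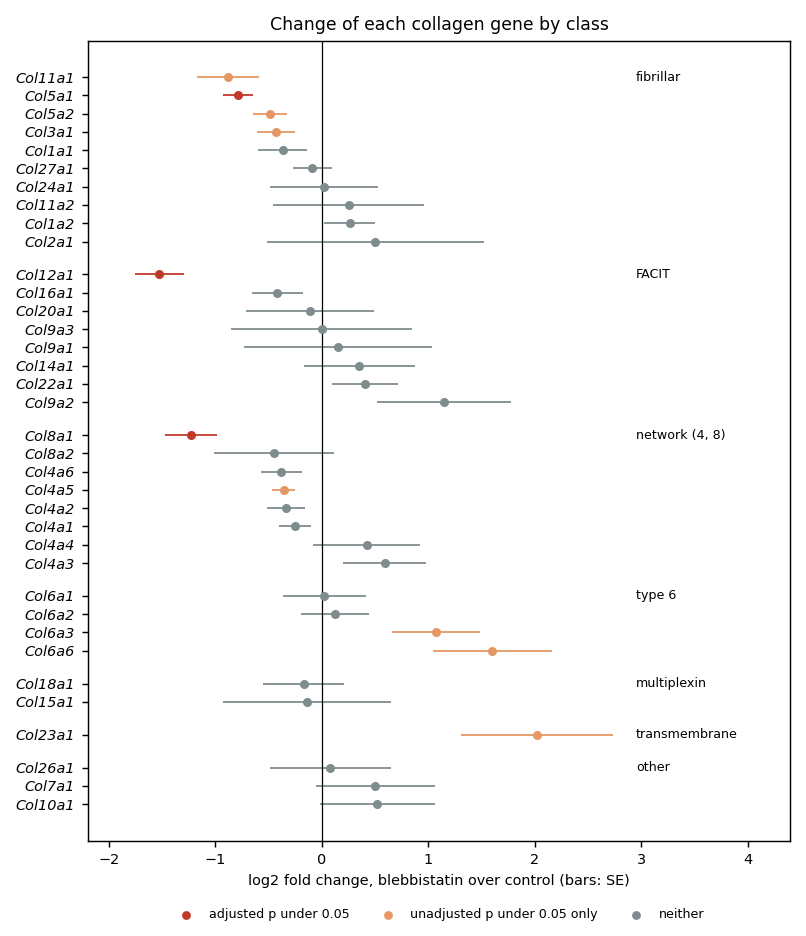
Log2 fold change of each collagen gene, blebbistatin over control, with its SE, arranged by class. Col12a1, Col5a1 and Col8a1 carry an adjusted p under 0.05, all 3 lower with blebbistatin, the 4 type 6 genes lie above 0 (Col6a1 and Col6a2 lay below 0 in limma voom), and the widest intervals belong to genes of low level. Col23a1 and Col6a6 met the 1 CPM rule of the count table through blebbistatin libraries, with 0 and 1 controls above it.

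These calls stood beside another difference between the groups. Mitochondrial genes took 16.8% to 25.5% of the counts (median 22.5%) with blebbistatin and 13.8% to 18.9% (median 16.4%) in controls. With that share as a covariate, edgeR called 0 collagen genes, and 1 gene among all those tested. The log2 fold changes were then −1.37 for Col12a1 (adjusted p = 0.258), −0.96 for Col5a1 (0.212) and −1.56 for Col8a1 (0.212). The share differs between the groups, so its part and that of the drug cannot be told apart. Leaving the mitochondrial genes out of the counts and library sizes kept 3 calls, with −1.53 for Col12a1, −0.78 for Col5a1 and −1.23 for Col8a1.

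Col12a1 was the collagen gene with the smallest p. It encodes a FACIT that lies along type 1 fibrils, known from tendon and other tissues under mechanical load (ENSMUSG00000032332, chromosome 9, 79598991 to 79718831, minus strand). It stood at 33.3 to 88.7 CPM with blebbistatin, with a median of 47.5, and at 66.7 to 211 CPM in controls, with a median of 143. All treated explants were below the control median, and 7 of 8 were below every control; only blebbistatin 4, at 88.7 CPM, lay within the control range. The log2 fold change was −1.53 (SE 0.23, edgeR adjusted p = 0.00421), and the call held without any single library in turn (highest adjusted p = 0.0125). Each library held at least 709 counts of the gene. An antisense transcript, 4930562D21Rik, overlaps 2132 bases of the span of Col12a1, introns included. Neither exon overlap nor the strand setting is known here, so any part of its reads in the Col12a1 counts could not be judged.

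The other 7 FACIT genes did not pass. Col16a1, another FACIT, had 15.9 to 53.8 CPM (median 22.8) with blebbistatin and 22.7 to 54.7 CPM (median 35.2) in controls, for a log2 fold change of −0.42 (adjusted p = 0.506). Col14a1, a close relative of Col12a1 that also coats fibrils, had 3.55 to 45.8 CPM (median 16.7) with blebbistatin and 3.24 to 35.0 CPM (median 12.9) in controls. Its log2 fold change was 0.35 (SE 0.52, adjusted p = 0.827), but 0.05 in limma voom and 0.04 to 0.65 with a library left out, so no direction can be given for it. The difference between it and Col12a1 was not tested. The ranges of Col14a1 overlapped almost wholly, and its within-group SD of 1.27 on the log2 scale was well above that of Col12a1, 0.50. Col20a1 and Col22a1 had log2 fold changes of −0.11 and 0.40, and the type 9 genes Col9a1, Col9a2 and Col9a3, which coat the type 2 fibrils of cartilage, of 0.15, 1.15 and 0.00.

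Among the 10 fibrillar genes, 1 was lower, 0 were higher and 9 did not pass. Col5a1 encodes a chain of type 5 collagen, which is built into type 1 fibrils and limits their width (ENSMUSG00000026837, chromosome 2, 27886425 to 28039514, plus strand). It stood at 200 to 404 CPM (median 286) with blebbistatin and 354 to 599 CPM (median 510) in controls. All but 1 of the treated explants lay below every control. The log2 fold change was −0.79 (SE 0.14, edgeR adjusted p = 0.011), and the highest adjusted p with a library left out was 0.0368. With a covariate for the summed Y-linked genes it was −0.82 (edgeR adjusted p = 0.0449). Col5a1 had the second-smallest spread of the collagens, with a within-group SD of 0.28 on the log2 scale, against a median of 0.52 over all genes. Gm13372 and 2810430I11Rik overlap the span of Col5a1, introns included, on the other strand, over 5021 and 628 bases.

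Col5a2, the partner chain of Col5a1 in type 5 collagen, stood at 180 to 459 CPM (median 293) with blebbistatin and 301 to 535 CPM (median 439) in controls. Of the treated explants 5 lay below every control, but the log2 fold change of −0.49 (SE 0.16) did not pass (unadjusted p = 0.0059, edgeR adjusted p = 0.177). Col11a1, of the related type 11 collagen, had 55.2 to 270 CPM (median 120) with blebbistatin and 134 to 394 CPM (median 238) in controls. Its log2 fold change of −0.88 (SE 0.29) did not pass either (unadjusted p = 0.00649, edgeR adjusted p = 0.184), although it did with the replicate number as a block, and again 5 of 8 treated explants lay below every control. Col3a1, for the type 3 collagen of soft, stretchable tissue, had 466 to 1300 CPM (median 956) with blebbistatin and 997 to 1700 CPM (median 1230) in controls, for a log2 fold change of −0.43 (unadjusted p = 0.0283, edgeR adjusted p = 0.327). Col27a1 (−0.09), Col24a1 (0.02), Col11a2 (0.25) and Col2a1 (0.50) completed the class.

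**Figure D3:**
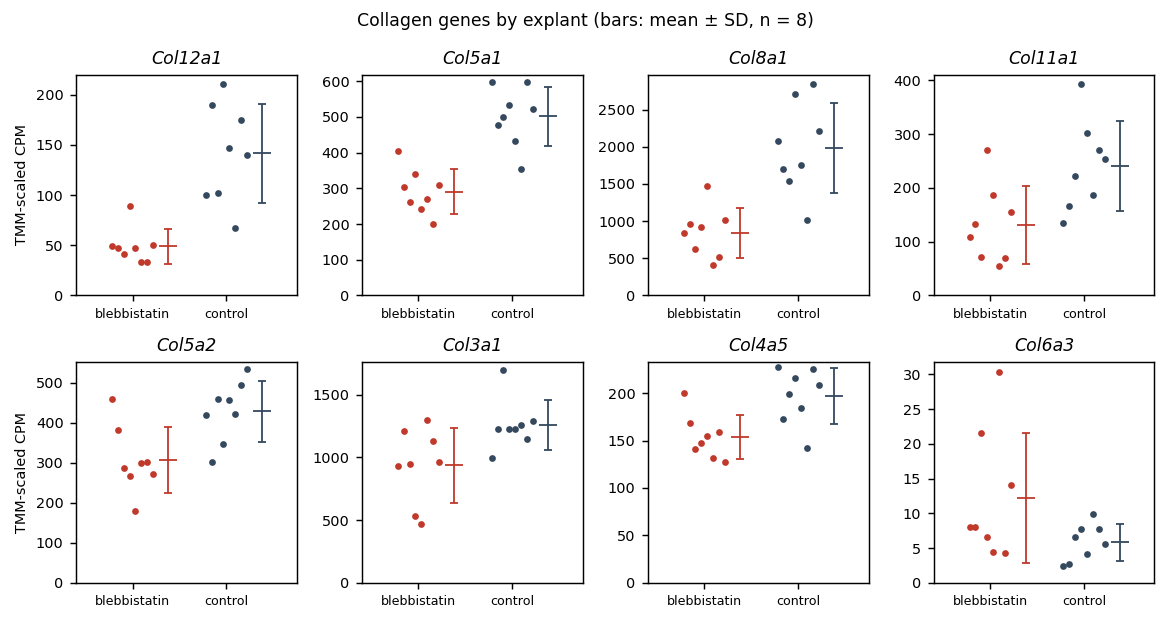
TMM-scaled CPM of 8 collagen genes in each explant, blebbistatin left and control right, with the mean and SD of 8. In Col12a1, Col5a1 and Col8a1 a single treated explant lies above the lowest control, while Col6a3 shows 3 treated explants above every control.

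Neither chain of type 1 collagen passed on its own. Col1a1 (chromosome 11, 94936224 to 94953042) stood at 1140 to 4970 CPM (median 2960) with blebbistatin and 2730 to 5270 CPM (median 3750) in controls, for a log2 fold change of −0.37 (SE 0.23, edgeR adjusted p = 0.56). Col1a2 (chromosome 6, 4504814 to 4541544) stood at 1200 to 5440 CPM (median 3490) with blebbistatin and 1840 to 3760 CPM (median 3050) in controls, for a log2 fold change of 0.26 (SE 0.24, edgeR adjusted p = 0.718). The sign for Col1a2 was not stable: it was −0.01 with the Y-linked covariate and −0.00 with the mitochondrial share as a covariate. Col1a1 was then at −0.64 and −0.70. The groups overlapped widely for both genes.

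The ratio of the 2 chains, taken within each library, separated the groups. Type 1 collagen is normally built from a pair of Col1a1 chains and a single Col1a2 chain, and a ratio within a library does not depend on how libraries are scaled to each other. There were 0.802 to 0.952 counts of Col1a1 for each count of Col1a2 (median 0.893) with blebbistatin, and 1.11 to 1.72 (median 1.42) in controls. Every treated explant was below every control. The mean log2 ratio was −0.18 ± 0.09 with blebbistatin and 0.45 ± 0.21 in controls (SD, n = 8 each), a difference of −0.63. By an exact permutation test, 2-sided, with all 12870 arrangements of the samples, p was 0.000155, the smallest it can give, and 0.000932 adjusted over the 6 chain ratios examined. Per kb of exon the median ratio was 1.69 with blebbistatin and 2.68 in controls. Of all collagen counts Col1a1 took 24.8% ± 4.99 with blebbistatin and 26.6% ± 2.47 in controls, and Col1a2 took 28.1% ± 5.70 with blebbistatin and 19.6% ± 3.41 in controls (SD, n = 8 each). A transcript of unknown status, Gm43921, overlaps 1792 bases of the span of Col1a2, introns included, on the same strand. Whether exons overlap was not examined, so any part of its reads in the Col1a2 counts could not be judged.

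The other 5 chain ratios did not pass the same exact permutation test, with adjusted p-values of 0.29 to 0.608. The difference in mean log2 ratio was 0.09 for Col4a1 to Col4a2, −0.28 for Col5a1 to Col5a2, −0.13 for Col6a1 to Col6a2, 1.02 for Col6a3 to Col6a1 and −1.10 for Col8a1 to Col8a2. The Col4a1 to Col4a2 ratio was the tightest of these, with SDs of 0.16 with blebbistatin and 0.12 in controls on the log2 scale.

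**Figure D4:**
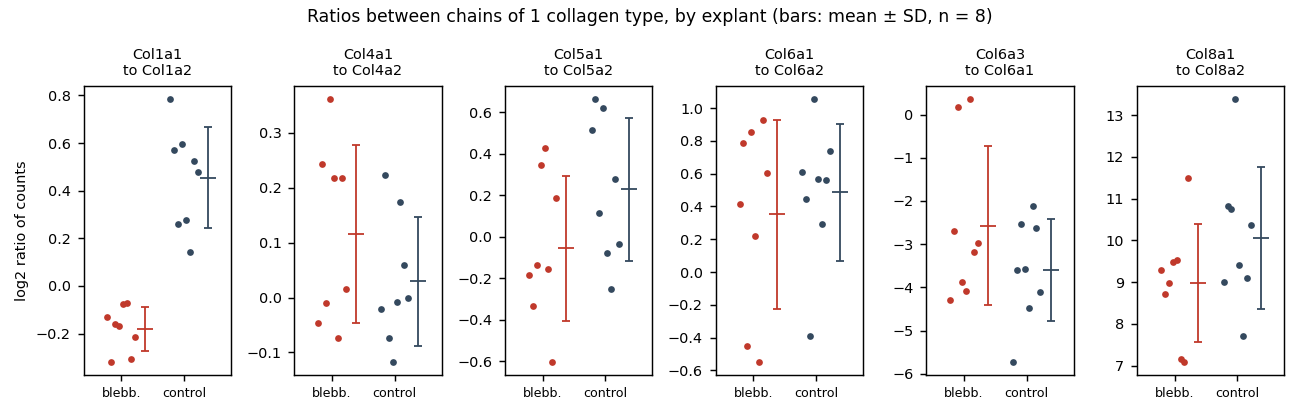
Log2 ratio of counts between chains that assemble into the same collagen type, per explant, blebbistatin left and control right, with the mean and SD of 8. The panels have separate scales. In the Col1a1 to Col1a2 panel all 8 treated explants lie below 0 and all 8 controls above it, and in the other 5 panels the groups overlap.

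Of the 8 network genes, 1 was lower, 0 were higher and 7 did not pass. Col8a1 encodes the main chain of type 8 collagen, a short collagen of vessel walls and of the membrane beneath the cornea's inner cell layer (ENSMUSG00000068196, chromosome 16, 57624258 to 57754737, minus strand). It stood at 408 to 1470 CPM (median 879) with blebbistatin and 1020 to 2850 CPM (median 1920) in controls, and 7 of 8 treated explants lay below every control. The log2 fold change was −1.23 (SE 0.24, edgeR adjusted p = 0.0198). The call ended without control 7 (−1.14, adjusted p = 0.0503) and with a covariate for the summed Y-linked genes (−1.20, adjusted p = 0.0911). Those Y-linked genes had a median of 144 CPM with blebbistatin and 7.08 CPM in controls, so that the groups were uneven in Y-linked RNA. Ddx3y, 1 of them, stood at 56.2 to 83.2 CPM in blebbistatin 1, 2, 3, 6 and 8 and in control 4 and 5. In the other explants it was at most 0.504 CPM. Col8a2, the partner of Col8a1, was low, at 0.299 to 3.75 CPM with blebbistatin and 0.200 to 5.19 CPM in controls. The log2 fold change of Col8a2 was −0.45 (SE 0.56, edgeR adjusted p = 0.792).

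The type 4 genes of the basement membrane lie as 3 pairs, each transcribed in opposite directions from adjoining starts. Col4a1 stood at 840 to 1790 CPM (median 1170) with blebbistatin and 1100 to 1810 CPM (median 1490) in controls, and Col4a2 at 722 to 1840 CPM (median 1100) with blebbistatin and 942 to 1810 CPM (median 1490) in controls. Their log2 fold changes were −0.25 (SE 0.15, edgeR adjusted p = 0.55) and −0.34 (SE 0.18, edgeR adjusted p = 0.472), and the groups overlapped in both. The annotated genes overlap by 22 bases on chromosome 8, and their promoter windows share 78 bases. Col4a5 and Col4a6, 1308 bases apart on chromosome X, had log2 fold changes of −0.36 and −0.38. Col4a5, at 127 to 200 CPM (median 151) with blebbistatin and 142 to 228 CPM (median 204) in controls, was the least variable collagen gene, with a within-group SD of 0.22, but did not pass (unadjusted p = 0.00556, edgeR adjusted p = 0.172). Col4a3 and Col4a4, 71 bases apart on chromosome 1, were low, with control medians of 3.73 and 3.33 CPM, and their log2 fold changes were 0.59 and 0.42. The 2 members of a pair thus had similar log2 fold changes, and none of the 6 genes passed. Col3a1 and Col5a2, which end 24614 bases apart on chromosome 1, also had similar values (−0.43 and −0.49), as did Col6a1 and Col6a2, 85161 bases apart on chromosome 10 (0.02 and 0.12).

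Of the 4 type 6 genes 0 passed edgeR, DESeq2 or limma voom, with no adjusted p for Col6a6 in DESeq2. Col6a1 and Col6a2, the chains that every type 6 molecule needs, had log2 fold changes of 0.02 (SE 0.39) and 0.12 (SE 0.32). Col6a1 stood at 18.9 to 158 CPM (median 64.7) with blebbistatin and 32.7 to 127 CPM (median 70.0) in controls, and Col6a2 at 21.0 to 119 CPM (median 44.3) with blebbistatin and 24.0 to 83.0 CPM (median 47.5) in controls. Both changed sign under several alternatives, among them leaving out blebbistatin 1 and 8 (−0.47 and −0.34). Col6a3, the large chain that completes the molecule, was low, at 4.35 to 30.4 CPM (median 8.05) with blebbistatin and 2.35 to 9.87 CPM (median 6.06) in controls. Its log2 fold change was 1.07 (SE 0.41, unadjusted p = 0.0181, edgeR adjusted p = 0.279), and 3 of 8 treated explants lay above every control. With the Y-linked covariate its log2 fold change was 0.38 (adjusted p = 0.869), and with a library left out 0.72 to 1.22. Col6a6, which can replace Col6a3, had 0.401 to 9.81 CPM (median 1.31) with blebbistatin and 0.407 to 1.07 CPM (median 0.748) in controls, for a log2 fold change of 1.60. Since 7 blebbistatin libraries but only 1 control exceeded 1 CPM, the gene is in the table through the group where it is high, and no p is given. That value rested on blebbistatin 1, and without it the log2 fold change was 0.67.

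The multiplexins Col15a1 and Col18a1, basement membrane collagens that carry sugar chains, had log2 fold changes of −0.14 (SE 0.79) and −0.17 (SE 0.38). Col18a1, the source of endostatin, stood at 7.58 to 48.3 CPM (median 12.9) with blebbistatin and 7.66 to 44.6 CPM (median 17.3) in controls, and Col15a1 at 0.0315 to 2.19 CPM with blebbistatin and 0 to 3.19 CPM in controls. Col23a1, a membrane-spanning collagen, was the lowest member per kb. It stood at 0.171 to 1.93 CPM (median 1.27) with blebbistatin and 0 to 0.784 CPM (median 0.215) in controls, and its log2 fold change was 2.02. As no control reached 1 CPM, the gene would have been left out of the table without at least 4 treated explants above that level, so the difference is a description, with no p. Col7a1, of anchoring fibrils, Col10a1, of growth plate cartilage, and Col26a1 had log2 fold changes of 0.50, 0.52 and 0.08. Not one of the 36 genes had groups that did not overlap, against 0.159% of all genes with every treated explant below every control and 0.0829% with every treated explant above.

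The spread between explants differed widely among the collagens. Within-group SDs on the log2 scale were lowest for Col4a5 (0.22), Col5a1 (0.28) and Col4a1 (0.32) and highest for Col2a1 (3.24), Col9a3 (2.19) and Col9a1 (1.97). Col2a1 and the type 9 genes are collagens of cartilage. The values of Col2a1 and Col9a1 went with the replicate number in both groups, a split chosen after the values were seen. Col2a1, the main fibrillar collagen of cartilage, stood at 11.7 to 71.4 CPM (median 40.3) in blebbistatin 2 to 6 and 18.7 to 42.2 CPM (median 33.9) in control 2 to 6. In explants 1, 7 and 8 it stood at 0.299 to 0.684 CPM with blebbistatin and 0.250 to 0.529 CPM in controls. The lowest value among numbers 2 to 6 was 17.1-fold the highest among numbers 1, 7 and 8. Col9a1 split the same way, at 0.310 to 2.18 CPM in blebbistatin 2 to 6 and 0.644 to 1.63 CPM in control 2 to 6, against at most 0.171 CPM in blebbistatin 1, 7 and 8 and 0.216 CPM in control 1, 7 and 8. Of all tested genes, 9 had all 10 libraries numbered 2 to 6 above all 6 others, 2 of them these collagens, and 6 had the reverse. No test is given for this split, and what the numbers stand for is not stated in the labels.

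**Figure D5:**
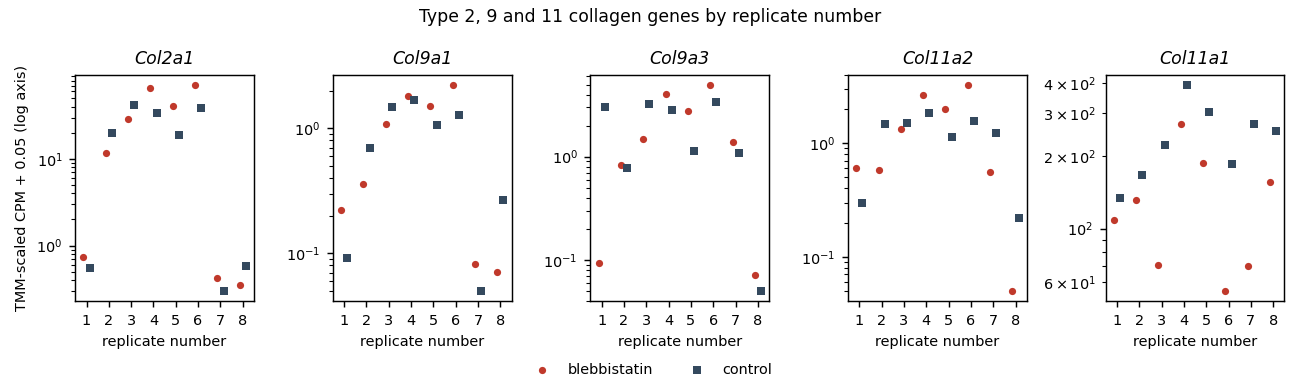
TMM-scaled CPM plus 0.05, on log axes, of 5 cartilage-type collagen genes by replicate number, blebbistatin as circles and control as squares. Col2a1 and Col9a1 are high in numbers 2 to 6 and low in 1, 7 and 8 in both groups, Col9a3 and Col11a2 follow this less closely, and Col11a1 does not.

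Genes that act on collagen were described as 6 lists, of 108 tested genes in all: 3 were lower, 0 were higher and 105 did not pass, and the median of their log2 fold changes was −0.08. Of all genes tested, 0.351% were lower and 0.255% higher. At an unadjusted p under 0.05, 24 of the 108 were lower and 5 higher, against 5.98% and 6.21% of all genes. Of 24 genes that hydroxylate, glycosylate, fold or export procollagen, 1 was lower (median of the list −0.15), 5 lower and 0 higher at an unadjusted p under 0.05, and DESeq2 called 2 lower, the other being Plod3, a lysyl hydroxylase (−0.53, DESeq2 adjusted p = 0.0343). The gene called by edgeR was P4ha1, a catalytic subunit of prolyl 4-hydroxylase, the enzyme that stabilises the triple helix, at 82.9 to 133 CPM (median 95.9) with blebbistatin and 122 to 182 CPM (median 156) in controls. Its log2 fold change was −0.57 (SE 0.12, edgeR adjusted p = 0.0319). The call was fragile, as it ended without any 1 of 11 libraries, namely blebbistatin 1, 3, 4, 6 or 7 or control 1, 2, 3, 4, 7 or 8, with log2 fold changes of −0.64 to −0.53 over all 16 libraries left out and a highest adjusted p of 0.0748. It ended as well with the Y-linked covariate (−0.52, adjusted p = 0.173) and with the replicate number as a block (−0.58, adjusted p = 0.0509). Serpinh1, the collagen chaperone of the endoplasmic reticulum, had −0.14 (adjusted p = 0.717). Serpinh1 and Plod3 are named outside the rule, after their values were seen.

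Of 12 genes of propeptide cleavage and crosslinking, 1 was lower (median −0.12). Lox, for the enzyme that starts the crosslinks between collagen molecules, stood at 307 to 1400 CPM (median 772) with blebbistatin and 1140 to 2650 CPM (median 1860) in controls. Its log2 fold change was −1.37 (SE 0.27, edgeR adjusted p = 0.0198), all treated explants were below the control median, and the call ended without control 7 (−1.29, adjusted p = 0.0503) and with the Y-linked covariate (−1.33, adjusted p = 0.112). The list had 3 lower and 1 higher at an unadjusted p under 0.05. The higher one was Adamts3, for a protease that trims procollagen ends, named after its value was seen. It stood at 4.06 to 19.6 CPM (median 8.03) with blebbistatin and 1.27 to 9.74 CPM (median 3.03) in controls, with all 8 treated explants above the control median. Its log2 fold change of 1.31 (SE 0.41) did not pass edgeR (unadjusted p = 0.00444, adjusted p = 0.157), but DESeq2 called it higher (adjusted p = 0.0387), as did edgeR with the replicate block (1.39, adjusted p = 0.042). Of 14 proteases that cut collagen and their inhibitors, 1 was lower (median −0.10), with 4 lower and 0 higher at an unadjusted p under 0.05. Mmp16, a membrane-bound metalloprotease, stood at 38.9 to 59.6 CPM (median 47.6) with blebbistatin and 60.6 to 95.3 CPM (median 79.6) in controls. The groups did not overlap, and the log2 fold change was −0.70 (SE 0.12, edgeR adjusted p = 0.00701). With the mitochondrial share as a covariate in edgeR the 3 calls ended. The log2 fold changes were then −0.72 for P4ha1 (adjusted p = 0.239), −1.91 for Lox (0.177) and −0.67 for Mmp16 (0.309). As that share differs between the groups, its part and that of the drug cannot be told apart.

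The counts of the next 3 lists are to be read against the shares over all genes, 5.98% lower and 6.21% higher at an unadjusted p under 0.05 and 1.53% and 1.26% in DESeq2. Of 18 fibril-associated proteoglycans and glycoproteins 0 passed edgeR (median 0.14), with 3 lower and 1 higher at an unadjusted p under 0.05 and 2 called lower by DESeq2. Those of smallest p were Fn1, for fibronectin, on which collagen fibrils are laid down (−0.56, edgeR adjusted p = 0.0526), Thbs1, for the matrix protein thrombospondin 1 (−0.56, adjusted p = 0.144), and Lum, for lumican, which binds fibrils (0.80, adjusted p = 0.237). Fn1 stood at 3670 to 5800 CPM (median 4250) with blebbistatin and 5070 to 8660 CPM (median 6510) in controls. Of 14 collagen receptors 0 passed edgeR (median −0.29), with 5 lower and 2 higher at an unadjusted p under 0.05 and 1 called each way by DESeq2. Itgb1, for the beta chain shared by the collagen-binding integrins, had −0.45 (edgeR adjusted p = 0.0673), whereas Mrc2, an endocytic receptor that takes up collagen, had 0.45 (adjusted p = 0.106) and Ddr2, a receptor tyrosine kinase for fibrillar collagen, 0.36 (adjusted p = 0.182). Of 26 signals and transcription factors known to act on collagen genes 0 passed edgeR (median −0.04), with 4 lower and 1 higher at an unadjusted p under 0.05 and 1 called lower by DESeq2. Among those of smallest p were Tgfb3, a TGF-beta ligand (−0.41, edgeR adjusted p = 0.139), and Skil, an inhibitor of SMAD signalling (−0.35, adjusted p = 0.154).

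The shares of the classes among collagen counts are a description of the same libraries. Fibrillar genes held 48.9% to 78.6% of collagen counts (median 70.8%) with blebbistatin and 54.2% to 71.4% (median 63.4%) in controls. Network genes held 19.6% to 47.2% (median 26.7%) with blebbistatin and 26.5% to 42.6% (median 34.3%) in controls, and Col8a1 alone a median of 6.39% with blebbistatin and 13.1% in controls. FACITs held medians of 0.871% and 1.19% and type 6 genes of 1.08% and 0.801% in blebbistatin and control explants. The ranges of every class overlapped between the groups.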

How the data were processed

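RNA from 16 explants, 8 per group, was sequenced from Nextera XT libraries after Ovation amplification, per the labels' protocols. The authors deposited raw counts per gene. The submitters' processing notes name HTSeq 0.6.1p1, TopHat2 2.1.0, edgeR, Bowtie2 2.2.6.0 and SAMtools 1.3, with build mm10 (GRCm38). The sources used here do not give the role of each tool, the annotation or the strand setting. Each of the 15805 genes exceeded 1 CPM in at least 4 libraries, so a collagen below that level was not in the table and could not be seen to change. This level, called the rule of the count table above, was read from the counts themselves. Col13a1, Col17a1, Col19a1, Col25a1, Col28a1, Col5a3, Col6a4 and Col6a5 were not analysed here. Of the deposited gene names 21 had become dates and 72 were blank, and symbols were restored from 15665 matched identifiers. Gene positions and exon lengths are from GENCODE M21 on GRCm38.

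The counts were scaled by TMM, filtered with filterByExpr, which left 15675 genes, and tested with edgeR 4.0.16 (R 4.3.3, robust quasi-likelihood fit with no term besides group). The p-values were adjusted by Benjamini-Hochberg over the 15675 genes, and 0.05 was the threshold. The chain ratios were log2 ratios with an offset of 2 counts scaled to library size, tested by exact permutation over samples and adjusted over 6 ratios. DESeq2 1.42.0 and limma 3.58.1 (voom), RLE scaling, no filter on low counts, covariates, a replicate block and each library left out were alternatives. On simulated data with these means and depths over 15608 genes, edgeR found 41 of the 100 genes that had been changed 2-fold and 80 of the 98 at 4-fold. Unchanged genes made up 6.20% of those it called.

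The collagen genes, their classes and the lists of related genes were chosen with earlier results of these data known. Values were given in full for called collagens and for 16 others of the main types, for those with an unadjusted p under 0.05, and in each related list for called genes or otherwise the 3 of smallest p, of which 1 is not reported here. The list of cartilage genes was added after the values were seen. Intervals of spread are between explants, and amplified reads are not independent molecules.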

Additional observations from a re-analysis of the deposited data

Results flagged for a closer look

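Among 84 sets of 8 explants (36 collagen genes and 6 chain ratios in each group), 8 held 1 explant that stood apart from the rest of its group by a gap wide for the group's range, where chance gives about 1 in 20 for normally spread values. These CPM values were not logged, all 8 were the highest of their group, and the rate for such values was not tested. Col12a1 stood at 88.7 CPM in blebbistatin 4, above the next treated explant at 49.9, and this is the treated value that lay within the control range. Col4a2 stood at 1840 CPM in blebbistatin 1, above the next at 1250. The same explant stood apart for Col24a1, at 12.9 CPM against 5.51, and for Col6a6, at 9.81 CPM against 1.70. In blebbistatin 8, Col18a1 stood at 48.3 CPM against 19.2. In control 3, Col3a1 stood at 1700 CPM against 1290. Col26a1 stood apart in both groups in explant 3, at 3.60 CPM in blebbistatin 3 against 1.45 and at 3.46 CPM in control 3 against 1.80. Of the 8 values 3 came from blebbistatin 1 and 2 from control 3.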

How the results depend on the processing

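The fold changes and calls were recomputed under 26 alternatives and the chain ratios under 20. The Col1a1 to Col1a2 ratio kept its sign and its call under all 20 (−0.68 to −0.59), GC correction, chosen after seeing the data, included. Not every covariate of the gene fits was among those 20. The class medians ran over −0.48 to −0.14 for fibrillar, −0.45 to 0.32 for FACIT, −0.55 to −0.27 for network and 0.13 to 0.72 for type 6 collagens. Only that for FACITs changed sign. Genes called lower over the whole table numbered 226 with DESeq2, 16 with the Y-linked covariate, 162 with the macrophage covariate and 0 with the mitochondrial share as a covariate. Those called higher numbered 186, 6, 102 and 1 under the same settings, and 20 without blebbistatin 1 and 8. With 1 library left out, those lower ran from 24 to 124, moving by over 1.5 times without blebbistatin 5 (98) or 6 (32) or control 4 (36), 6 (124), 7 (24) or 8 (34). Those higher ran from 16 to 82, moving so without blebbistatin 5 (82), 6 (17) or 8 (21) or control 1 (23), 2 (21), 3 (26), 4 (16), 5 (23), 6 (82), 7 (20) or 8 (20). Collagens called lower numbered 0 with the mitochondrial covariate and 2 to 3 with a library left out.

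Signs changed for genes far from the threshold, and the cause was not tested. Col1a2 was −0.01 with the Y-linked covariate and −0.00 with the mitochondrial one. Col6a1 was −0.04 (Y-linked covariate), −0.13 (limma voom), −0.17 (macrophage covariate), −0.76 (mitochondrial covariate) and −0.47 (without blebbistatin 1 and 8). Col6a2 was −0.01 (limma voom), −0.59 (mitochondrial covariate) and −0.34 (without blebbistatin 1 and 8). Col15a1 was 0.70 (limma voom), 0.10 (macrophage covariate) and 0.08 (mitochondrial covariate). With a library left out, Col6a1 ran from −0.25 to 0.20, Col6a2 from −0.17 to 0.28, Col15a1 from −0.41 to 0.31 and Col18a1 from −0.60 to 0.13.

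The replicate numbers were not shown to pair the samples: the correlation of same-numbered deviations was 0.00 to 0.28, 4 of 8 pairs exceeded 0.1, and for 1 number the libraries correlated best with each other. With the replicate block, 119 genes were lower, 4 collagens were lower (Col11a1 added, −0.99, adjusted p = 0.0436), Col6a1 was −0.14, Col6a2 −0.00 and Col15a1 0.32. The block also ended the call of P4ha1 (adjusted p = 0.0509), and the type 1 ratio had an adjusted p of 0.0469. The smallest p that the sign flips behind that ratio allow is 0.00781 before adjustment.

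At these depths genes below about 1 CPM rest on few reads, and most simulated 2-fold changes were not recovered.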

Other observations

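The cartilage collagens were not alone in following the replicate number. Acan, for the main proteoglycan of cartilage, stood at 1.38 to 9.98 CPM (median 4.57) in blebbistatin 2 to 6 and 2.31 to 4.60 CPM (median 4.11) in control 2 to 6. In explants 1, 7 and 8 it stood at 0 to 0.819 CPM with blebbistatin and 0.0481 to 1.68 CPM in controls, so that a single treated explant of the high set lay below the highest control of the low set. Hapln1, for the link protein that ties Acan's product to hyaluronan, had medians of 4.38 CPM in blebbistatin 2 to 6 and 3.06 CPM in control 2 to 6, against 0.0427 CPM in blebbistatin 1, 7 and 8 and 0.649 CPM in control 1, 7 and 8. The sets overlapped for Hapln1. Its highest value in control 1, 7 and 8 was 1.49 CPM. The lowest was 1.37 CPM in control 2 to 6 and 0.905 CPM in blebbistatin 2 to 6. Comp, for a matrix protein of cartilage and tendon, had medians of 1.15 CPM in blebbistatin 2 to 6 and 0.700 CPM in control 2 to 6, against 0.158 CPM in blebbistatin 1, 7 and 8 and 0.0413 CPM in control 1, 7 and 8. The sets of Comp were apart within each group but not across groups. Its highest value in blebbistatin 1, 7 and 8 was 0.534 CPM, and its lowest in control 2 to 6 was 0.349 CPM.

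The transcription factor genes Sox9, Sox5 and Sox6 did not follow the split. Sox9 had medians of 12.5 CPM in blebbistatin 2 to 6 and 16.1 CPM in control 2 to 6. In numbers 1, 7 and 8 its medians were 7.62 CPM with blebbistatin and 16.1 CPM in controls. For Sox5 the medians were 48.3 CPM in blebbistatin 2 to 6 and 25.1 CPM in control 2 to 6. In numbers 1, 7 and 8 they were 47.0 CPM with blebbistatin and 30.0 CPM in controls. For Sox6 they were 70.3 CPM in blebbistatin 2 to 6 and 85.9 CPM in control 2 to 6. In numbers 1, 7 and 8 they were 80.0 CPM with blebbistatin and 78.1 CPM in controls. Col10a1, the collagen of enlarged cartilage cells, followed it in part, with medians of 2.88 CPM in blebbistatin 2 to 6 and 2.75 CPM in control 2 to 6, against 2.37 CPM in blebbistatin 1, 7 and 8 and 0.429 CPM in control 1, 7 and 8. The ranges of the 2 sets of numbers overlapped in both groups. Of the 15 cartilage genes listed 11 were in the table, and 0 passed edgeR. At an unadjusted p under 0.05 there was 1, against 5.98% of all genes lower and 6.21% higher. DESeq2 called 1, against 1.53% lower and 1.26% higher of all genes to which it gave an adjusted p. The summed CPM of the 11 had a median of 173 (93.8 to 247) with blebbistatin and 164 (107 to 206) in controls. These genes and this split were chosen after the values were seen, and no test is given. Within each group, the replicate number is the only label used here that differs between high and low explants. The numbers were not shown to pair the samples.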
